A study of Mus musculus with 16 samples.

Results

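The genes of fatty acid uptake and binding in mouse liver were examined in the RNA-Seq data of a study that set siRNA knockdown of ketohexokinase (KHK), the enzyme that phosphorylates fructose, beside a small-molecule inhibitor of its activity. The 10 genes were chosen as a list of symbols, namely Cd36, Fabp1, Fabp2, Fabp4, Slc27a1, Slc27a2, Slc27a4, Slc27a5, Lpl and Vldlr. All 10 were found among the 50559 symbols of the deposited table, and all 10 passed the filter on low counts, as did 18335 genes in all. The livers came from male C57BL/6J mice in 4 groups of 4 libraries each. The labels number the libraries of a group and do not say that each came from a separate mouse, so that p-values measure the spread between these libraries. Mice of the LFD group ate a low-fat diet, which the sample labels call chow, and mice of the HFD group ate a high-fat diet, both for 10 weeks. Both groups received a control siRNA against luciferase and methylcellulose by gavage. Mice of the HFD + siRNA group ate the high-fat diet and, from week 6, were injected every 2 weeks for 4 weeks with siRNA against Khk, together with the methylcellulose gavage. This siRNA carries GalNAc, a sugar ligand for a receptor of hepatocytes, so that it is delivered to hepatocytes. Mice of the HFD + Inhib group ate the high-fat diet and, over the same 4 weeks, were gavaged with the KHK inhibitor PF-06835919, which is not directed at one cell type, together with the control siRNA. The mice were given saline or insulin shortly before the liver was taken, and the labels do not say which library had which. Library totals ranged from 24317111 to 35820234 expected counts, with a median of 29570114.

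Long-chain fatty acids reach hepatocytes as albumin-bound fatty acids or as lipoprotein triglyceride, which lipoprotein lipase (Lpl) splits at the vessel wall and the VLDL receptor (Vldlr) binds. CD36 and the fatty acid transport proteins (FATPs, the Slc27a genes) act at membranes. The FATPs are also acyl-CoA synthetases, which trap the fatty acid as its CoA ester. Inside the cell, the fatty acid binding proteins (FABPs) hold fatty acids in solution, and liver FABP (Fabp1) is one of the most abundant proteins of the hepatocyte cytosol. Lpl, Vldlr, Fabp4 and Slc27a1 are best known from adipose tissue and muscle, and Fabp2 from the intestine. Many of these genes are known targets of PPARα or PPARγ, nuclear receptors that are activated by fatty acids and bind DNA together with RXR at direct repeats of a hexamer.

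The upstream sequences of 3 of the genes are shown because they hold AGGTCA, the hexamer that these nuclear receptors bind. They are the 250 bases before the gene start, 5' to 3' on the gene's strand, from RefSeq on GRCm38.p6, and capitals mark the hexamer, which reads TGACCT on the opposite strand. This build differs from mm39, the build of the deposited counts, and serves for sequence only. Positions are Fabp1 at chr6:71199629-71199878 on the plus strand, Cd36 at chr5:17835897-17836146 on the minus strand and Slc27a2 at chr2:126552774-126553023 on the plus strand.
Fabp1: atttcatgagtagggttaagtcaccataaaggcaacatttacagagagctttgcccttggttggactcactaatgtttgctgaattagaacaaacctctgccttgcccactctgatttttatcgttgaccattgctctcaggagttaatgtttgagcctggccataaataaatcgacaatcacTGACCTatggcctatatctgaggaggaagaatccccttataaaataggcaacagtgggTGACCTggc
Cd36: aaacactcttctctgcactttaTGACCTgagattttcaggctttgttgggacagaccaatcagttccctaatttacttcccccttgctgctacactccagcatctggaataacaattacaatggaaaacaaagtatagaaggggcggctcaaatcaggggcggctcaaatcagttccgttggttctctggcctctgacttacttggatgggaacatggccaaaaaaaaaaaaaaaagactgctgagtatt
Slc27a2: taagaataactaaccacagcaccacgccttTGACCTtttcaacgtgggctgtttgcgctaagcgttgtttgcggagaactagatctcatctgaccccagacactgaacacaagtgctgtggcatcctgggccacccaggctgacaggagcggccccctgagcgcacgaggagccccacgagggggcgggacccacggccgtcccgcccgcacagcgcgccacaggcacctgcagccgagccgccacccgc
The Fabp1 window held 2 such hexamers. The one 67 to 62 bases before the start was the first part of TGACCTATGGCCT, a match on the opposite strand to AGGNCANAGGNCA, which is a direct repeat of a relaxed hexamer with a spacer of 1 base. Searched on both strands in the same window, AGGTCA was found in 14.0% of 32851 promoters and AGGNCANAGGNCA in 0.338%. A TATA box (tataaa, present in 12.4%) lay 30 to 25 bases before the Fabp1 start. The table held 10 such windows for 7 of the 10 genes, and AGGTCA was in the windows of these 3 genes and not in those of Fabp2, Slc27a1, Slc27a4 or Vldlr. These matches describe letters in a short window and were not tested for binding.

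Khk itself was measured in every library as a check of the treatment labels. Its level, as counts scaled to the library total (CPM), was 214, 233, 349 and 269 in LFD and 251, 322, 233 and 251 in HFD. The HFD + siRNA libraries held 11.8, 9.14, 18.1 and 11.5 CPM of Khk, and the HFD + Inhib libraries 112, 152, 94.6 and 120.5 CPM. Every treated library lay below every control library, and the siRNA libraries lay below those of the inhibitor. Khk mRNA fell by 4.38 on the log2 scale with the siRNA (standard error (SE) 0.23, adjusted p = 1.88e-08; the test is the quasi-likelihood one of edgeR, adjusted by Benjamini-Hochberg over the 18335 genes) and fell by 1.14 with the inhibitor (SE 0.20, edgeR adjusted p = 0.000752). No library went against its treatment label in this gene. LFD and HFD overlapped in Khk (log2 fold change -0.01, edgeR adjusted p = 0.975), so that it cannot check the diet labels.

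The inhibitor raised 9 of the 10 uptake and binding genes above HFD and lowered 0 of 10, whereas Khk siRNA changed 0 of 10 at the same threshold (adjusted p under 0.05, the same edgeR test). The median log2 fold change of the 10 genes was 1.74 in HFD + Inhib versus HFD, beside -0.0044 over all tested genes, and 0.11 in HFD + siRNA versus HFD, beside 0.02 over all. With the inhibitor, 9.8% of all tested genes were higher and 8.42% lower than in HFD. With the siRNA, 5.2% of all tested genes were higher and 6.55% lower, so that 0 of 10 was near the background share. In the siRNA comparison 2 of the 10 genes, Slc27a1 and Slc27a2, had an unadjusted p under 0.05, as did 26.9% of all genes, and DESeq2 called these 2 genes higher. Both comparisons use the same HFD libraries, so they are not independent.

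Compared directly, HFD + Inhib was higher than HFD + siRNA for 8 of the 10 genes and lower for 0, where 17.3% of all tested genes were higher and 16.6% lower. The high-fat diet alone changed 3 of the 10 genes: Cd36 and Fabp2 rose and Slc27a5 fell, while 9.58% of all tested genes were higher and 8.8% lower in HFD than in LFD. The 1 gene that fell with the diet was thus near the background share. The median of the 10 genes was 0.21 for the diet, beside -0.01 over all. Against LFD, HFD + Inhib was higher for 9 and lower for 1 of the 10 genes (all genes, 18.8% higher and 18.2% lower), and HFD + siRNA was higher for 3 and lower for 0 (all genes, 4.75% higher and 3.88% lower). The counts of lower genes were not above these shares.

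**Figure D1:**
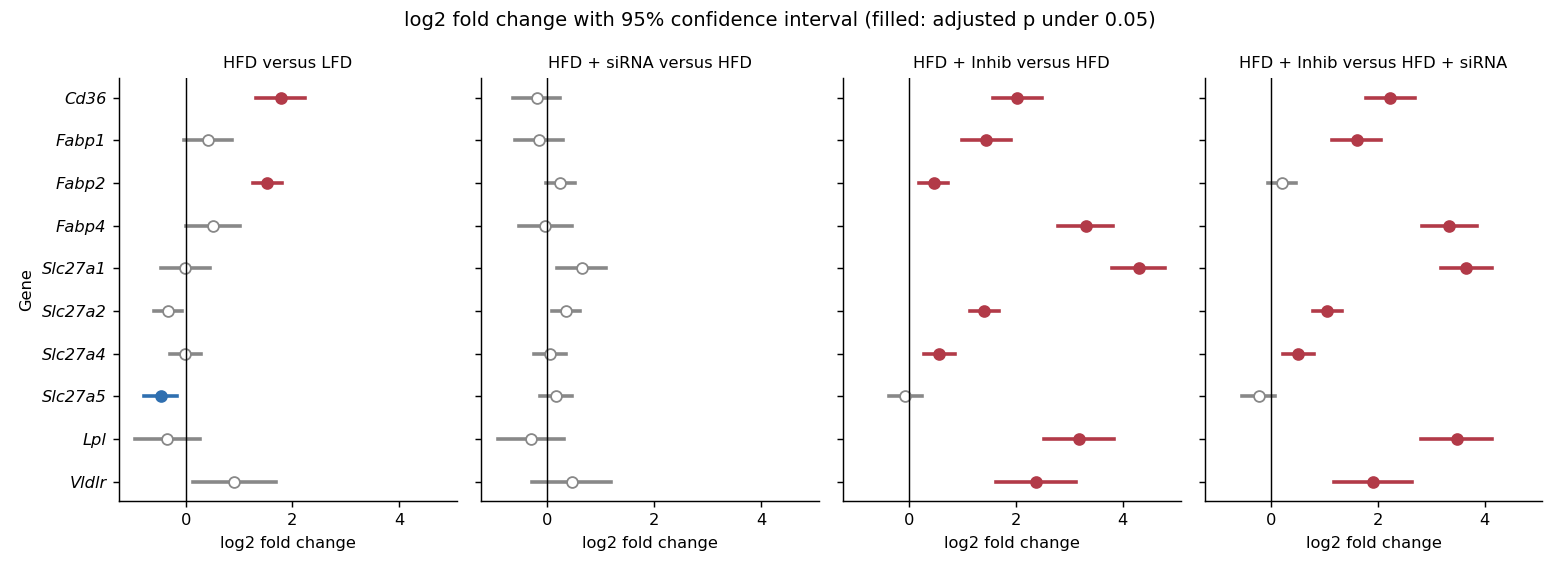
log2 fold change (horizontal axis) of the 10 genes (vertical axis) in 4 comparisons, with 95% confidence intervals from edgeR as lines; filled points passed an adjusted p of 0.05 (red higher, blue lower) and open points did not. In HFD + Inhib versus HFD 9 points are filled, from 0.46 for Fabp2 to 4.30 for Slc27a1, and in HFD + siRNA versus HFD none is.

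For 7 of the 10 genes, all 4 HFD + Inhib libraries lay above all 12 other libraries, a pattern seen in 6.13% of tested genes. These were Cd36, Fabp1, Fabp4, Slc27a1, Slc27a2, Lpl and Vldlr. Summed over the 10 genes, LFD held 3704 ± 220.5 CPM (SD, n = 4), HFD 4048 ± 476 CPM, HFD + siRNA 4066 ± 873 CPM and HFD + Inhib 10245 ± 759 CPM. Fabp1 made up 61.1% ± 3.32 of that sum in HFD and 65.9% ± 4.68 in HFD + Inhib. These are livers in bulk, so that more mRNA in each cell and more cells of a type that holds it cannot be told apart.

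**Figure D2:**
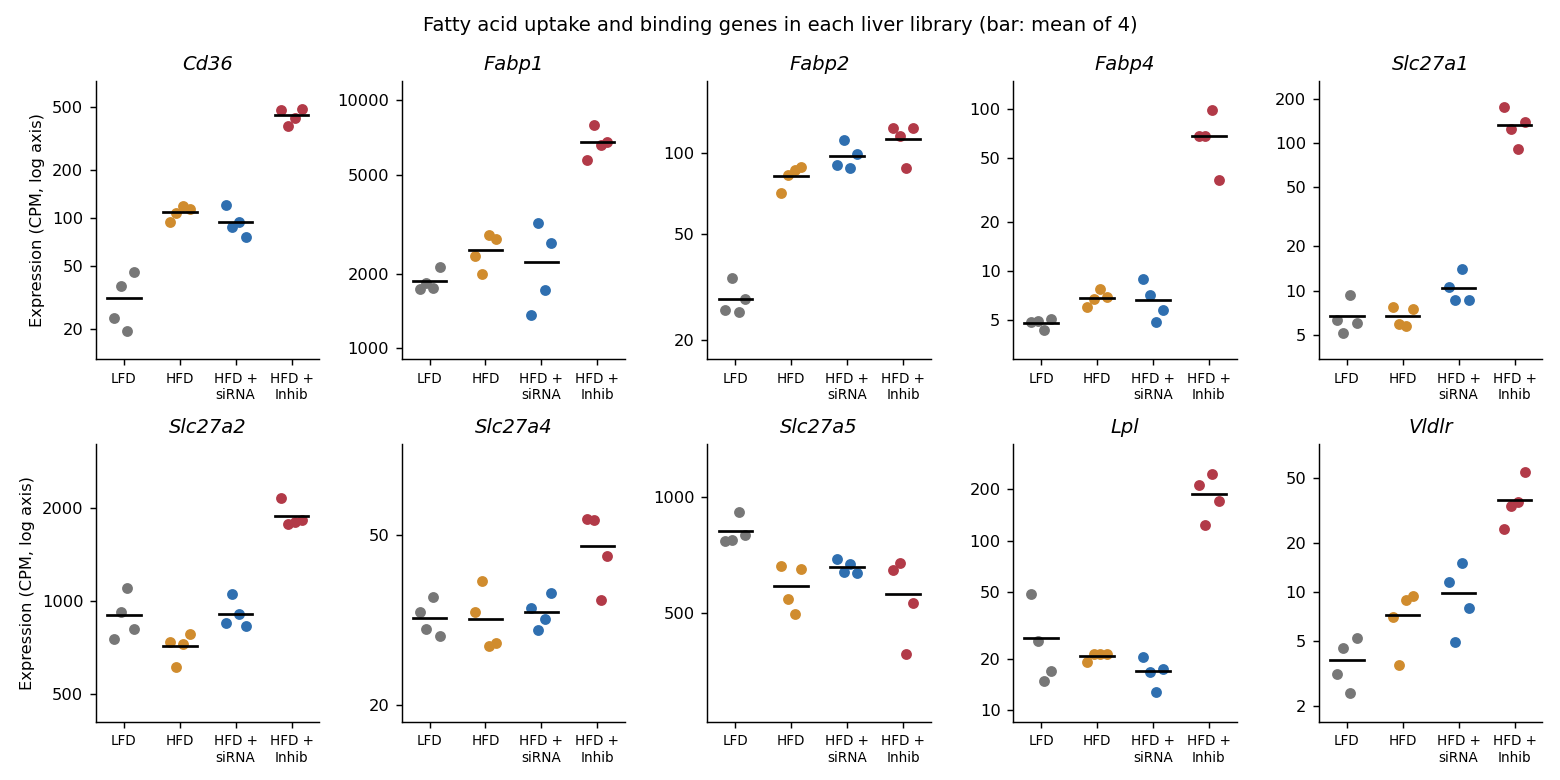
Expression of each of the 10 genes (vertical axis, CPM on a log scale that differs between panels) in the 4 libraries of each group (points, with the mean as a bar). The HFD + Inhib points lie above all other libraries for 7 genes, as for Slc27a1 (91.7 CPM or more, against 13.9 CPM or less), and overlap the other groups for Fabp2, Slc27a4 and Slc27a5.

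Of the genes that act on lipoprotein triglyceride, Lpl was at 19.4, 21.5, 21.5 and 21.4 CPM in HFD and at 213, 124, 248 and 170.3 CPM in HFD + Inhib. It was 20.7, 16.8, 12.9 and 17.6 CPM in HFD + siRNA. The inhibitor libraries stood apart from both, and the other groups overlapped. Lpl mRNA was 9.02-fold higher in HFD + Inhib than in HFD (log2 fold change 3.17, SE 0.31, edgeR adjusted p = 3.44e-06) and 11.1-fold higher than in HFD + siRNA. The siRNA difference from HFD was -0.30 with a 95% confidence interval from -0.92 to 0.32. In LFD, Lpl was 48.5, 25.6, 14.96 and 17.2 CPM, the widest relative spread of the 10 genes in that group, with 1 library above the rest. The diet difference was -0.34 (edgeR adjusted p = 0.449), and without that library, LFD replicate 1, it was 0.13.

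Vldlr, the receptor that binds triglyceride-rich lipoproteins, had the lowest level per kilobase of the 10 genes in every group. It was 3.14, 4.51, 2.39 and 5.21 CPM in LFD and 7.03, 3.57, 8.88 and 9.46 CPM in HFD. The HFD + siRNA libraries held 11.6, 4.92, 15.03 and 7.97 CPM and the HFD + Inhib libraries 24.3, 33.7, 35.7 and 54.5 CPM. The first 3 groups overlapped one another and the inhibitor group overlapped none. Vldlr rose 5.17-fold with the inhibitor (log2 fold change 2.37, SE 0.36, edgeR adjusted p = 0.000212). The diet difference of 0.91 did not pass (95% interval from 0.14 to 1.69, edgeR adjusted p = 0.0953), but it passed by DESeq2 (adjusted p = 0.0377) and without HFD replicate 2 (1.15, edgeR adjusted p = 0.0375). HFD + siRNA was above LFD by 1.37 (SE 0.36, edgeR adjusted p = 0.0282), a call that was lost in each of 4 fits that left out LFD replicate 1 or 3 or siRNA replicate 1 or 3, and in a fit of these groups alone (edgeR adjusted p up to 0.0955).

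Cd36, the membrane protein that takes up long-chain fatty acids, rose with the diet and again with the inhibitor. Its level was 23.6, 37.6, 19.4 and 45.7 CPM in LFD and 94.7, 107, 119 and 114 CPM in HFD. The siRNA libraries held 120.1, 87.4, 94.7 and 75.5 CPM and the inhibitor libraries 477, 382, 426 and 486 CPM. LFD lay below all HFD-fed groups, HFD and HFD + siRNA overlapped, and HFD + Inhib lay above. The diet raised Cd36 3.44-fold (log2 fold change 1.78, SE 0.22, edgeR adjusted p = 9.48e-05) and the inhibitor raised it 4.07-fold above HFD (2.03, SE 0.22, edgeR adjusted p = 7.36e-06). HFD + Inhib was 14.0-fold above LFD. The siRNA difference from HFD was -0.20, with a 95% interval from -0.64 to 0.24, and HFD + siRNA stayed 2.99-fold above LFD (edgeR adjusted p = 0.000325).

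The 4 FATP genes did not move alike. Slc27a1 (FATP1), the form best known from muscle and adipose tissue, was 6.29, 5.16, 9.38 and 6.00 CPM in LFD and 7.75, 5.93, 5.73 and 7.47 CPM in HFD. It was 10.6, 8.67, 13.9 and 8.70 CPM in HFD + siRNA and 175, 124, 91.7 and 138 CPM in HFD + Inhib. LFD and HFD overlapped, every siRNA library lay above every HFD library, and the inhibitor libraries lay far above all. The inhibitor raised Slc27a1 19.7-fold above HFD (log2 fold change 4.30, SE 0.23, edgeR adjusted p = 3.96e-09), the largest change of the 10 genes, and it was 12.6-fold above HFD + siRNA. With the siRNA the log2 fold change was 0.64 (95% interval from 0.18 to 1.10), which did not pass by edgeR (adjusted p = 0.0644) and passed by DESeq2 (adjusted p = 0.0308) and in a fit of HFD and HFD + siRNA alone (edgeR adjusted p = 0.0360).

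Slc27a2 (FATP2), a main FATP of the liver that also activates very long-chain fatty acids, was 755, 920.0, 1100.1 and 812 CPM in LFD and 734, 609.9, 724 and 781 CPM in HFD. It was 848, 1049, 907 and 829 CPM in HFD + siRNA and 2146, 1778, 1798 and 1819 CPM in HFD + Inhib. The siRNA libraries overlapped LFD and lay above HFD, and the inhibitor libraries lay above all. Slc27a2 rose 2.65-fold with the inhibitor (log2 fold change 1.40, SE 0.13, edgeR adjusted p = 1.7e-06) and was 2.08-fold above HFD + siRNA. The siRNA difference from HFD was 0.35 (95% interval from 0.09 to 0.62, edgeR adjusted p = 0.0802, DESeq2 adjusted p = 0.0455). The diet difference was -0.33 (edgeR adjusted p = 0.0759, DESeq2 adjusted p = 0.0404).

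Slc27a5 (FATP5), the liver-specific member, which also activates bile acids, was 769, 773, 917 and 797 CPM in LFD and 663, 542, 498 and 651 CPM in HFD. It was 689, 640.0, 671 and 634 CPM in HFD + siRNA and 647, 676, 391 and 531 CPM in HFD + Inhib. LFD lay above the 3 HFD-fed groups, which overlapped one another. Slc27a5 fell by 0.47 on the log2 scale with the diet (SE 0.14, edgeR adjusted p = 0.0329), and it was the only one of the 10 genes that the inhibitor did not raise (log2 fold change -0.07, 95% interval from -0.37 to 0.24). The diet call was lost after correction for GC content and length (edgeR adjusted p = 0.0667) and without LFD replicate 1 or 3 or HFD replicate 2 or 3 (edgeR adjusted p up to 0.109). Without inhibitor replicate 3, the lowest library, the inhibitor difference was 0.07.

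Slc27a4 (FATP4), a widely expressed member, was 33.0, 30.2, 35.9 and 29.0 CPM in LFD and 33.1, 39.0, 27.5 and 27.9 CPM in HFD. It was 33.8, 29.9, 31.8 and 36.6 CPM in HFD + siRNA and 54.6, 54.3, 35.3 and 44.6 CPM in HFD + Inhib. All groups overlapped HFD, through the inhibitor library at 35.3 CPM. The inhibitor raised Slc27a4 1.48-fold (log2 fold change 0.56, SE 0.14, edgeR adjusted p = 0.00926). The siRNA difference was 0.05, with a 95% interval from -0.24 to 0.34.

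Per kilobase of transcript, Slc27a5 and Slc27a2 made up nearly all FATP mRNA. Slc27a5 was 57.1% ± 2.47 (SD, n = 4) of the summed CPM per kb of the 4 genes in LFD and 54.3% ± 2.99 in HFD. With the siRNA it was 51.3% ± 2.96 and with the inhibitor 28.5% ± 4.38. Slc27a2 was 41.7% ± 2.52, 44.1% ± 3.11 and 47.1% ± 3.13 in the first 3 groups and 64.8% ± 4.83 in HFD + Inhib. Slc27a1 went from 0.539% ± 0.0313 in HFD to 5.83% ± 0.928 in HFD + Inhib, and Slc27a4 was 1.08% ± 0.262 in HFD and 0.871% ± 0.0944 in HFD + Inhib. By this measure, the order of the 2 liver FATPs was turned with the inhibitor, and the ranges of their shares did not overlap those of any other group. In CPM, not divided by length, Slc27a2 had the higher mean in every group, as in LFD (897 against 814 CPM) and HFD (712 against 588 CPM). The order thus depends on the division by length. The shares use the median GENCODE transcript length of each gene. With the longest transcript instead, Slc27a2 (311 CPM per kb) was also ahead of Slc27a5 (288 CPM per kb) in HFD + siRNA, and the order in the other 3 groups was as with the median.

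**Figure D3:**
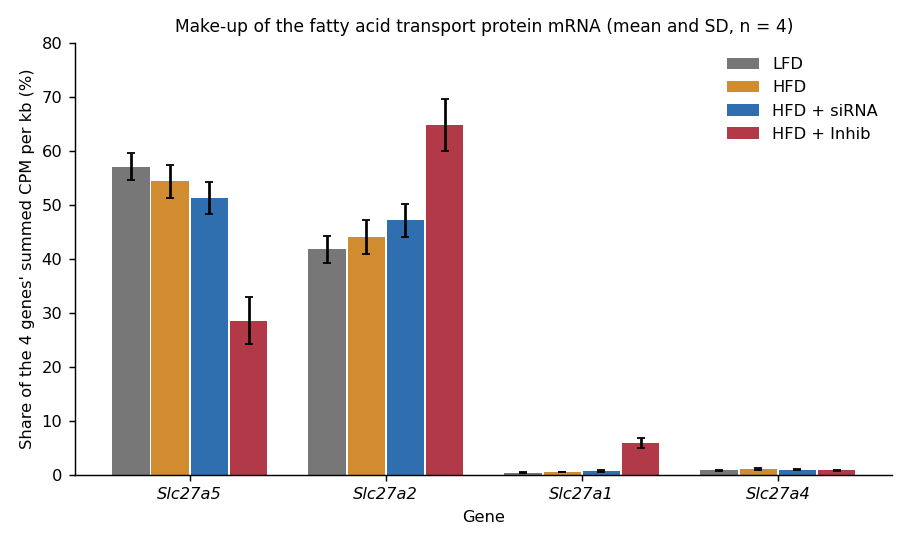
Share of each FATP gene (horizontal axis) in the summed CPM per kb of the 4 FATP genes (vertical axis, %), as mean with SD of the 4 libraries of each group. With median transcript lengths, Slc27a5 leads in LFD, HFD and HFD + siRNA (51.3% to 57.1%) and Slc27a2 in HFD + Inhib (64.8%); with the longest transcripts Slc27a2 leads in HFD + siRNA as well.

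Among the binding proteins, Fabp1 had by far the highest level per kilobase of the 10 genes in every group, at 4490.0 ± 721 CPM per kb in HFD (SD, n = 4) and 12241 ± 1674 CPM per kb in HFD + Inhib. In CPM, Fabp1 was 1737, 1830.3, 1751 and 2116 in LFD and 2346, 1983, 2855 and 2747 in HFD. It was 1355, 3194, 1724 and 2649 in HFD + siRNA and 5733, 7980.0, 6596 and 6769 in HFD + Inhib. The first 3 groups overlapped, with the siRNA libraries the most spread, and the inhibitor libraries lay above all. Fabp1 rose 2.73-fold with the inhibitor (log2 fold change 1.45, SE 0.22, edgeR adjusted p = 0.000199). The diet difference was 0.42 (95% interval from -0.03 to 0.87) and the siRNA difference -0.15 (95% interval from -0.60 to 0.29). This gene holds the promoter with the direct repeat shown above.

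Fabp4, the adipocyte FABP, which macrophages and endothelial cells also express, was 4.91, 4.98, 4.33 and 5.08 CPM in LFD and 6.03, 6.78, 7.81 and 6.96 CPM in HFD. It was 9.02, 7.14, 4.85 and 5.80 CPM in HFD + siRNA and 67.9, 68.5, 99.0 and 36.5 CPM in HFD + Inhib. LFD and HFD did not overlap, the siRNA libraries spread over both, and the lowest inhibitor library was above all of these. Fabp4 rose 9.86-fold with the inhibitor (log2 fold change 3.30, SE 0.24, edgeR adjusted p = 2.26e-07) and was 10.1-fold above HFD + siRNA. The diet difference was 0.52 and did not pass (edgeR adjusted p = 0.149), but it passed in a fit of LFD and HFD alone (0.51, edgeR adjusted p = 0.0306).

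Fabp2, the intestinal FABP, was 25.8, 34.2, 25.4 and 28.5 CPM in LFD and 70.8, 83.1, 86.6 and 88.9 CPM in HFD. It was 90.4, 112, 88.2 and 99.0 CPM in HFD + siRNA and 124, 116, 87.7 and 124 CPM in HFD + Inhib. LFD lay below all HFD-fed groups, which overlapped one another. The diet raised Fabp2 2.89-fold (log2 fold change 1.53, SE 0.13, edgeR adjusted p = 5.19e-06), the smallest p of the 10 genes for the diet. The inhibitor raised it 1.37-fold above HFD (0.46, SE 0.13, edgeR adjusted p = 0.0175), and HFD + Inhib differed from HFD + siRNA by 0.21 (95% interval from -0.05 to 0.48). The inhibitor call was lost after correction for GC content and length (0.31, edgeR adjusted p = 0.0695), which gave an siRNA call (0.47, edgeR adjusted p = 0.0189), and without HFD replicate 1 or inhibitor replicate 1 or 4 (edgeR adjusted p up to 0.0647). Fabp2 is a marker of enterocytes, and 3 of the 7 enterocyte genes listed, Alpi, Sis and Cdh17, had 3 counts or fewer in every library. The list summed to 1.89 ± 1.08 CPM in LFD, 2.77 ± 1.02 CPM in HFD and 1.83 ± 0.550 CPM in HFD + Inhib, most of it the glucose transporter Slc5a1 (1.26, 2.59 and 1.28 CPM). Slc5a1, the single enterocyte gene tested, differed by 1.04 with the diet (edgeR adjusted p = 0.0678, called by DESeq2) and by -1.03 with the inhibitor (edgeR adjusted p = 0.0707, called by DESeq2). Krt20, Vil1 and Lct were 0, 0.61 and 0.010 CPM in LFD, 0.013, 0.11 and 0.019 CPM in HFD and 0.16, 0.33 and 0.064 CPM in HFD + Inhib. The part of enterocytes in the Fabp2 result was not tested.

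Other binding and transport genes were followed in a list of 15 genes, of which 11 passed the filter. With the inhibitor 4, Fabp3 among them, were higher and 1 lower than in HFD (median log2 fold change 0.19), and with the siRNA 0 were higher and 2 lower (median -0.0020). Without Fabp3, 3 of the other 10 were higher with the inhibitor. Over all tested genes 9.8% were higher and 8.42% lower with the inhibitor, near the share of the 1 lower gene, and 5.2% and 6.55% with the siRNA. The gene lower with the inhibitor was Fabp7, the brain FABP (-0.96, edgeR adjusted p = 0.0265), lost without any one of 3 libraries (edgeR adjusted p up to 0.0637). Fabp3, the heart FABP, had 0 to 3.35 counts in every library of the other groups and 5.83 ± 3.66 CPM in HFD + Inhib (SD, n = 4, 86.5 to 317 counts). It passed the filter only through the inhibitor libraries, so that it had to differ, and it is given without a test. Fabp5, the epidermal FABP, was 31.1 ± 29.6 CPM in LFD and 3.84 ± 1.04 CPM in HFD, 3.42 ± 2.36 CPM with the siRNA and 32.8 ± 19.3 CPM with the inhibitor. It fell with the diet (edgeR adjusted p = 0.00241) and rose with the inhibitor (edgeR adjusted p = 0.00119). Cav1, the coat protein of caveolae, rose by 1.76 with the inhibitor (edgeR adjusted p = 0.0053). Mfsd2a, a transporter of lysophospholipids that carry polyunsaturated fatty acids, rose by 2.61 with the diet (edgeR adjusted p = 1.75e-05) and fell by 0.88 with the siRNA (SE 0.23, edgeR adjusted p = 0.0236), the latter lost without HFD replicate 3 or siRNA replicate 1 or 4 (edgeR adjusted p up to 0.0949). It was 92.1 ± 9.45 CPM in HFD + Inhib and 93.8 ± 32.9 CPM in HFD. The other siRNA call of the list was Cav2, a partner of Cav1, which fell by 0.56 (edgeR adjusted p = 0.0127), a call lost after correction for GC content and length (-0.37, edgeR adjusted p = 0.0627).

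In the list of the lipoprotein lipase system and lipoprotein receptors, 18 of 19 genes were tested, and their median was close to that of all genes in HFD + Inhib versus HFD (-0.0024). The inhibitor raised 2 and lowered 4 (over the 16 alternatives, 1 to 3 and 2 to 4), and the siRNA raised 4 and lowered 1 (2 to 4 and 0 to 1). Over all tested genes 9.8% were higher and 8.42% lower with the inhibitor, and 5.2% and 6.55% with the siRNA, so that the 2 genes raised by the inhibitor and the 1 lowered by the siRNA were near the background share. Angptl4, a secreted inhibitor of Lpl, rose by 1.51 (SE 0.42, edgeR adjusted p = 0.0182), from 36.5 ± 9.41 to 104 ± 19.5 CPM, a call lost without HFD replicate 2 (1.35, edgeR adjusted p = 0.0603). Lipg, endothelial lipase, rose by 1.02 (edgeR adjusted p = 0.013). Apoc2, the activator of Lpl, fell by 0.79 (SE 0.13, edgeR adjusted p = 0.000349). The siRNA moved Apoc2 the other way, by 0.63 (edgeR adjusted p = 0.00519), and raised Lmf1, which matures Lpl, by 0.64 (edgeR adjusted p = 0.00467). Apoc1 also rose with the siRNA, by 0.52 (edgeR adjusted p = 0.0251), a call lost in 5 of the 16 alternatives (edgeR adjusted p up to 0.713). Lpl activity was not tested. The diet raised 3 and lowered 1 (all genes, 9.58% and 8.8%), with Lipg at 1.53 and Apoc2 at 0.86 (edgeR adjusted p = 0.00186 and 0.000474). Between the treatments, 4 were higher and 7 lower with the inhibitor (all genes, 17.3% and 16.6%), Apoc2 by -1.42 (edgeR adjusted p = 9.28e-07).

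Among 21 other PPARα target genes, most of which serve fatty acid oxidation, 19 rose and 0 fell with the inhibitor against HFD (median 1.55), 18 rose and 0 fell against HFD + siRNA (median 1.39), 0 rose and 1 fell with the siRNA against HFD (median 0.03), and 7 rose and 0 fell with the diet (median 0.31). Of all tested genes, 9.8% were higher and 8.42% lower with the inhibitor against HFD, and 17.3% and 16.6% against HFD + siRNA. The shares were 5.2% and 6.55% with the siRNA against HFD and 9.58% and 8.8% with the diet. The 1 gene that fell with the siRNA was thus near the background share. The fatty acid hydroxylases Cyp4a10 and Cyp4a14 rose by 5.26 and 5.13 with the inhibitor (edgeR adjusted p = 3.37e-08 and 3.1e-07), and Ehhadh, an enzyme of peroxisomal β-oxidation, by 4.65 (edgeR adjusted p = 4.23e-11). Ehhadh was the gene that fell with the siRNA (-0.65, edgeR adjusted p = 0.00842). The hormone Fgf21 had the largest diet change of the list (2.26, edgeR adjusted p = 0.00577). Of the 10 PPARγ-linked genes of the fatty liver, 9 rose and 0 fell with the inhibitor (median 0.97), 6 rose and 0 fell with the diet (median 0.76), and 0 rose and 1 fell with the siRNA (median 0.25). Among all tested genes, 9.8% were higher with the inhibitor, 9.58% were higher with the diet and 6.55% were lower with the siRNA. The 1 gene that fell with the siRNA was near the last of these shares. Over the 16 alternatives, with 8 to 10 genes tested, 7 to 10 rose with the inhibitor and 4 to 7 with the diet. The lipid droplet gene Cidec and the acyltransferase Mogat1 had inhibitor changes of 2.55 and 3.37 (edgeR adjusted p = 7.89e-05 and 1.08e-06). Cidea, another lipid droplet gene, was among those counted as risen with the inhibitor and with the diet. Of the other 9 genes, 8 rose with the inhibitor and 5 with the diet. Cidea was 0.02 CPM in LFD, 0.461 ± 0.517 CPM in HFD (SD, n = 4, 4 to 48 counts) and 16.6 ± 8.97 CPM in HFD + Inhib (217 to 762 counts), and is given without a test because it passed the filter through the inhibitor libraries. Cidec fell by 1.12 with the siRNA (edgeR adjusted p = 0.0499), a call that was lost in a fit of these groups alone (edgeR adjusted p = 0.0679), with the replicate block (edgeR adjusted p = 0.0869), without any one of the siRNA libraries (edgeR adjusted p up to 0.104), and without HFD replicate 3 (edgeR adjusted p = 0.0834) or 2 (-0.54, edgeR adjusted p = 0.216).

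Among 12 transcription factors known to act on these genes, the diet raised 3 and lowered 0, the siRNA changed 0, and the inhibitor raised 2 and lowered 1 against HFD (median -0.16), beside 9.8% of all tested genes higher and 8.42% lower with the inhibitor. The 1 lowered was thus at the background share. With the diet 9.58% of all tested genes were higher and 8.8% lower, and with the siRNA 5.2% and 6.55%. Between the treatments, 2 were higher and 5 lower with the inhibitor (median -0.37), beside 17.3% and 16.6% of all genes. Over the 16 alternatives these counts were 1 to 2 raised and 1 to 2 lowered against HFD, and 1 to 3 higher and 2 to 5 lower between the treatments. Ppara was 273 ± 30.7 CPM in LFD and 478 ± 92.9 CPM in HFD, 437 ± 27.3 CPM with the siRNA and 586 ± 61.7 CPM with the inhibitor. It rose by 0.81 with the diet (SE 0.13, edgeR adjusted p = 0.000757), and the inhibitor difference from HFD was 0.29 (SE 0.13, edgeR adjusted p = 0.12). Against HFD + siRNA, the inhibitor group was higher in Ppara by 0.42 (edgeR adjusted p = 0.0165), a call lost without inhibitor replicate 4 (edgeR adjusted p = 0.0545). It was lower in Rxra, a partner of the PPARs, by -0.54 (edgeR adjusted p = 0.00206), which was -0.26 and not called after correction for GC content and length (edgeR adjusted p = 0.0636). Pparg rose by 0.55 with the diet (edgeR adjusted p = 0.00426), and HFD + Inhib differed from HFD by -0.32 (edgeR adjusted p = 0.0624) and from HFD + siRNA by -0.34 (edgeR adjusted p = 0.0289). The first of these passed in 4 of the 16 alternatives (lowest edgeR adjusted p = 0.00497), and the second was lost in 8 (edgeR adjusted p up to 0.116). With the inhibitor, Ahr, the aryl hydrocarbon receptor, fell by 1.11 (SE 0.14, edgeR adjusted p = 4.48e-05) and Nr1i2, the pregnane X receptor, rose by 0.65 (SE 0.09, edgeR adjusted p = 8.4e-05). The other factor raised was Creb3l3, a liver factor of the fasting response, at 0.36 (edgeR adjusted p = 0.05 after rounding), a call lost in 10 of the 16 alternatives, 7 of them without a single library (edgeR adjusted p up to 0.162). Beside the 0 calls by edgeR with the siRNA, 4 of the 12 had an unadjusted p under 0.05, near the 26.9% of all tested genes, and DESeq2 called 2.

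**Figure D4:**
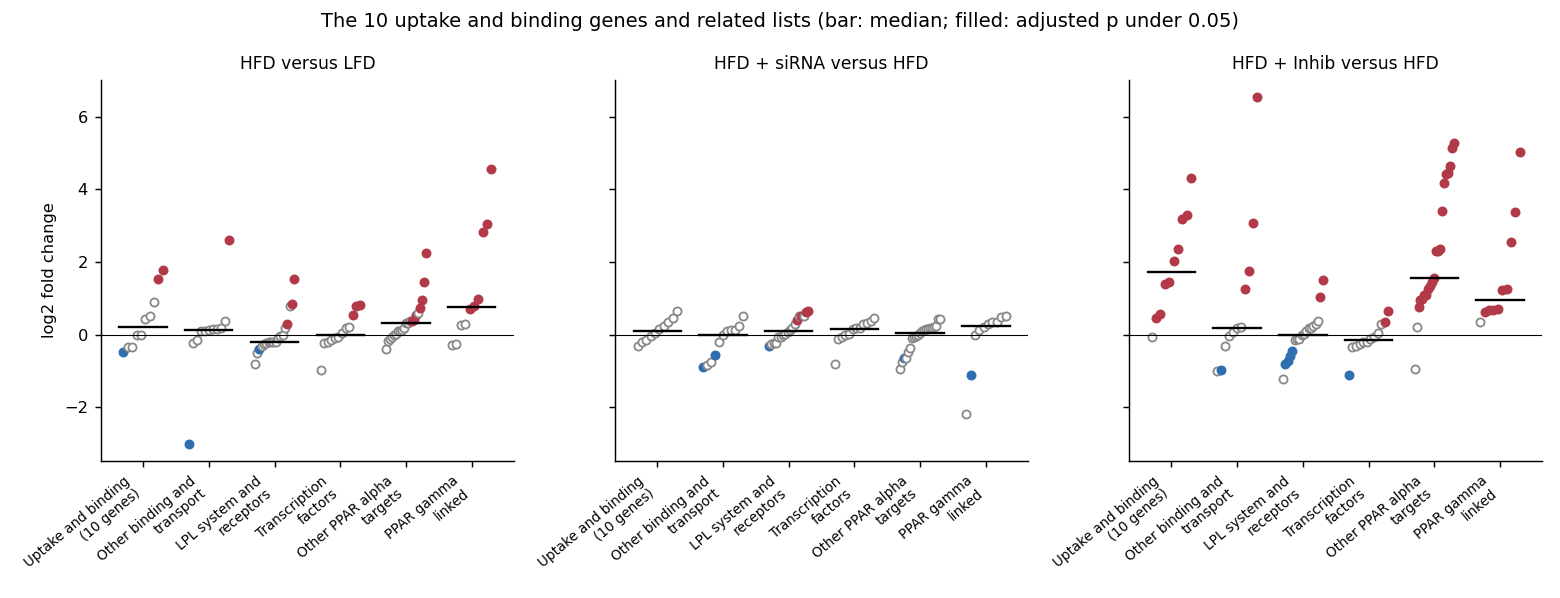
log2 fold change (vertical axis) of every tested gene of 6 lists (horizontal axis) in 3 comparisons; bars are list medians, filled points passed an edgeR adjusted p of 0.05 (red higher, blue lower) and open points did not. With the inhibitor the median is 1.74 for the uptake and binding genes and 1.55 for the other PPARα targets, and with the siRNA these medians are 0.11 and 0.03.

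Markers of other cells were read beside these results, since several of the 10 genes are known from such cells. Of all tested genes, 9.8% were higher and 8.42% lower with the inhibitor, and 9.58% and 8.8% with the diet. Of 9 adipocyte markers 4 passed the filter, and 3 were higher with the inhibitor: Cfd, adipsin, by 3.68 (edgeR adjusted p = 0.000315), Adrb3, the β3-adrenergic receptor, by 2.05 (edgeR adjusted p = 0.0001) and Lipe, hormone-sensitive lipase, by 0.72 (edgeR adjusted p = 0.018), the last lost without HFD replicate 2 or inhibitor replicate 1 or 4 (edgeR adjusted p up to 0.0617). The list summed to 22.1 ± 5.29 CPM in LFD and 21.6 ± 2.63 CPM in HFD, to 30.3 ± 4.82 CPM with the siRNA and to 104, 52.4, 74.3 and 66.3 CPM in the inhibitor libraries, with Lipe as its most abundant gene over all libraries. In HFD + Inhib it was Cfd, at 34.5 ± 16.2 CPM (SD, n = 4) against 2.59 ± 2.78 CPM in HFD, with Lipe at 23.6 CPM. With the diet, Cfd and Trarg1, a protein of GLUT4 vesicles, were higher (2.29 and 1.40, edgeR adjusted p = 0.0339 and 0.0203) and Adrb3 lower (-0.94, edgeR adjusted p = 0.0301). These calls were lost in 7, 4 and 5 alternatives (edgeR adjusted p up to 0.219), and Cfd was 1.15 without HFD replicate 2. The defining marker Adipoq had 0, 0, 3 and 2 counts in the HFD + Inhib libraries, and Lep had 0 in each of them. Retn and Plin1 had at most 1 count there. More than 3 counts of Adipoq were in LFD replicates 3 and 4 and HFD replicate 2 (16, 7 and 10 counts), and Fabp4 was 4.33, 5.08 and 6.78 CPM in these. The part of the adipocyte marker changes in the rise of Fabp4 and Lpl was not tested.

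Of the 44 markers tested over all lists, 4 were higher and 9 lower in HFD + Inhib than in HFD. Of all tested genes, 9.8% were higher and 8.42% lower in that comparison. The hepatocyte markers identified the tissue, with Alb at 50980 ± 5513 CPM in HFD and 29925 ± 1759 CPM in HFD + Inhib. The inhibitor lowered 3 and raised 0 of the 8 (Ttr by -0.93, Alb by -0.77 and Cps1 by -0.53; edgeR adjusted p = 5.55e-05, 0.000761 and 0.0146), and the list summed to 92976 ± 7105 CPM in LFD and 83745 ± 8033 CPM in HFD, to 88086 ± 5765 CPM with the siRNA and to 59525 ± 1203 CPM with the inhibitor. Of 12 macrophage markers the inhibitor lowered 3 and raised 0 (over the 16 alternatives, 1 to 5 and 0 to 1), namely Clec4f by -0.51 (edgeR adjusted p = 0.00756), Cd5l by -0.54 (edgeR adjusted p = 0.0299), lost without any one of 5 of the 8 libraries (edgeR adjusted p up to 0.0877), and Trem2 at -1.56 (edgeR adjusted p = 0.0468), a call lost in a fit of these groups alone (edgeR adjusted p = 0.0575), with no filter (edgeR adjusted p = 0.0526) and without any one of 6 of the 8 libraries (edgeR adjusted p up to 0.177). The lowest of these counts, 1 of 12 lowered, was near the 8.42% of all tested genes. The macrophage sum, with Clec4f as the most abundant, was 282 ± 26.6 CPM in HFD and 222 ± 41.2 in HFD + Inhib. Of 9 stellate cell markers the inhibitor lowered 3 and raised 0 (over the alternatives, 1 to 3 and 0), again with a low end of 1 near that share. Reln, the most abundant, was at -0.66 (edgeR adjusted p = 0.000251), Pdgfrb at -0.45 (edgeR adjusted p = 0.0157), lost after correction for GC content and length (-0.28, edgeR adjusted p = 0.0638) and without HFD replicate 1 or inhibitor replicate 4, and Colec11 at -0.39 (edgeR adjusted p = 0.0259), lost without any one of 5 of the 8 libraries (edgeR adjusted p up to 0.0894). Of 10 endothelial markers the inhibitor raised 1, Lyve1, by 0.86 (edgeR adjusted p = 0.031) and lowered 0. The 1 raised was at the background share, since 9.8% of all tested genes were higher with the inhibitor. The Lyve1 call was lost with the replicate block and GC and length correction (edgeR adjusted p = 0.0561) and without any one of 6 of the 8 libraries (edgeR adjusted p up to 0.119). The endothelial sum was 362 ± 23.7 CPM in HFD and 344 ± 9.62 in HFD + Inhib, with Stab2 as the most abundant. Of the 7 skeletal muscle markers none passed the filter, and their sum stayed at 0.18 CPM or less in every library. By edgeR the siRNA changed 0 of the 44 markers tested over all lists, with 8 at an unadjusted p under 0.05 and 2 called by DESeq2. Of all tested genes, 26.9% had an unadjusted p under 0.05 with the siRNA, and edgeR called 5.2% higher and 6.55% lower. Of the same 44 markers, 5 were higher and 16 lower in HFD + Inhib than in HFD + siRNA (all genes, 17.3% and 16.6%). The lower ones were 4 hepatocyte, 6 macrophage, 4 stellate and 2 endothelial markers. The higher ones were 3 adipocyte markers, 1 endothelial marker and 1 hepatocyte marker, Cyp2e1 (0.91, edgeR adjusted p = 0.00389). With the diet 4 of the 44 markers were higher and 2 lower (all genes, 9.58% and 8.8%), and DESeq2 called 10. The part of the hepatocyte, macrophage and stellate changes in the results on uptake genes was not tested.

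For the 3 genes whose group means spanned the widest range, the genes with the most similar pattern were sought by Pearson correlation of log2 CPM over the 16 libraries, among 12399 genes, as a description. Slc27a1 was most like Eci1, an isomerase of mitochondrial β-oxidation (r = 0.98), 5031439G07Rik (r = 0.98) and Acot1, an acyl-CoA thioesterase (r = 0.98). Cd36 was most like Oxsm, of mitochondrial fatty acid synthesis (r = 0.98), LOC115486416 (r = 0.97) and Pex3, a peroxisome assembly factor (r = 0.97). Among the genes most like Fabp4 were Cyp4a31 (r = 0.97) and Cyp4a10 (r = 0.97). All of these were highest in HFD + Inhib, Acot1 at 356 ± 91.3 CPM against 16.2 ± 1.13 CPM in HFD and Oxsm at 54.7 ± 1.60 against 44.1 ± 1.91 CPM. The libraries of a group share their diet and treatment, so that r here reflects the 4 group means as much as the libraries.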

How the data were processed

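Liver RNA was analysed in 16 libraries, 4 in each of 4 groups taken from the sample labels. The authors deposited 1 table of RSEM expected counts per gene symbol, not scaled between libraries, and 15.1% of its values are not whole because RSEM divides reads between genes. The submitters' processing notes name STAR, RSEM and mm39; versions, annotation and strandedness are not given in the sources used here. The paper names a probe-based assay (HTG EdgeSeq), which expected counts do not match, so the assay is uncertain.

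Expected counts were rounded. Genes were kept by filterByExpr (minimum count 10, minimum total 15) and scaled by TMM, and all 16 libraries entered a single edgeR quasi-likelihood fit with group means; p-values were adjusted by Benjamini-Hochberg over 18335 genes in each of 6 comparisons, and 0.05 was the threshold. SE is the absolute log2 fold change divided by the root of F, and 95% intervals use the t distribution. The procedure was tested on simulated data. CPM use TMM-scaled totals, and log2 CPM a prior count of 2. Levels per kb, GC content and length use GENCODE M21. Replicates of a group differed by more than sampling noise (chi-square per gene 20.5 to 152 over 24 pairs). R 4.3.3, edgeR 4.0.16, limma 3.58.1 and DESeq2 1.42.0 were used.

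The 10 genes and the lists were chosen with earlier results of these data known. Named besides the 10 genes and Khk are, from each list and comparison, at most the 3 largest changes past the threshold, the most abundant and the defining cell markers, and the 3 genes most like each of the 3 widest-ranging genes. One gene that this rule names is not reported here. Lists were described by counts and medians, without a set test. Alternatives were DESeq2, RLE size factors, no filter, at least 10 counts in each library, fitting the 2 compared groups alone, the replicate number as a block, GC and length correction, both together, and leaving out each library. Mean levels with RLE factors and likeness without each library were added after seeing the data.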

Additional observations from a re-analysis of the deposited data

Results flagged for a closer look

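In a check of 48 sets of 4 libraries (12 quantities per group), 2 had a library whose gap to its nearest neighbour relative to the whole range exceeded Dixon's 95% limit for 4 samples, and chance alone passes it in about 1 of 20 sets. Slc27a2 in HFD + Inhib had its highest library, replicate 1, at 2146 CPM (gap over range 0.887), above 3 libraries at 1778, 1798 and 1819 CPM, all of which lay above every library of the other groups. Lpl in HFD had its lowest library, replicate 1, at 19.4 CPM (gap over range 0.957), below 3 libraries at 21.5, 21.5 and 21.4 CPM; the whole group spanned little more than 2 CPM, so that this gap is small beside the 213, 124, 248 and 170.3 CPM of the inhibitor libraries.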

How the results depend on the processing

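The 6 comparisons gave 160 values each for the 10 genes (10 genes, 16 alternatives). With the inhibitor, 154 against HFD, 158 against HFD + siRNA and 160 against LFD kept their direction and side of the threshold, as did 142 for the siRNA against HFD, 144 for the siRNA against LFD and 133 for the diet. DESeq2 called 5 of the 10 genes for the diet (main test 3) and 2 for the siRNA against HFD (main test 0). The siRNA count was 1 in the fit of the compared groups, 1 with GC and length correction and 1 with the replicate block added to that. Genes called in HFD + siRNA versus LFD numbered 798 in the fit of the compared groups, against 1582. The causes were not tested. Values that changed sign were all small and had not passed the threshold. GC and length correction turned Cd36 and Fabp4 with the siRNA against HFD to 0.27 and 0.29, Slc27a4 to -0.0336, Fabp2 between the treatments to -0.16, Slc27a2 in HFD + siRNA versus LFD to -0.0191, and for the diet Slc27a1 to 0.2377, Slc27a4 to 0.1508 and Khk to 0.1497. With the replicate block as well, these were 0.26, 0.28, -0.0267, -0.16, -0.014, 0.2379, 0.1394 and 0.1606. For the diet, the replicate block alone gave 0.0079 for Slc27a1 and 0.0038 for Khk, no filter gave 0.0069 for Slc27a1 and 0.0046 for Slc27a4, and the minimum of 10 counts in every library gave 0.014 for Slc27a1, 0.0101 for Slc27a4 and 0.0053 for Khk. Replicate numbers did not pair the libraries: 6 of 24 same-number pairs correlated over 0.1 (from -0.132 to 0.336), and 4 of 16 libraries correlated best with their own number. The block left the counts of genes called among the 10 as they were.

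Leaving out 1 library at a time, the genes called ranged from 2010 (without LFD replicate 3) to 3693 for the diet (3370 in the main test), from 1101 (without HFD replicate 3) to 1993 for the siRNA against HFD (2154) and from 983 (without siRNA replicate 3) to 1460 for the siRNA against LFD (1582). For the diet, Slc27a1 ranged from -0.11 to 0.21, Slc27a4 from -0.12 to 0.0598, Lpl from -0.53 to 0.13 and Khk from -0.12 to 0.15. For the siRNA against HFD, Fabp1 ranged from -0.40 to 0.0091, Fabp4 from -0.23 to 0.0701 and Slc27a4 from -0.0152 to 0.16, and against LFD, Slc27a2 from -0.0728 to 0.12 and Slc27a4 from -0.0123 to 0.0924. Slc27a5 with the inhibitor against HFD ranged from -0.18 to 0.0701. The least deeply counted of the 10 genes was Vldlr, with 75 counts in its lowest library.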
